A study of Rattus norvegicus with 30 samples.

Results

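The 10 genes described here code for abundant proteins that hepatocytes secrete into plasma: the carriers and inhibitors Alb, Ttr, Ahsg, Rbp4, Serpina1, Gc and Ambp, and the apolipoproteins Apoa1, Apob and Apoc3. They were taken by symbol from the platform annotation, using probe sets with 1 symbol, and where a gene had several, the brightest on average over 30 arrays (mean log2 signal) stood for it. All 10 had such a probe set, among 14217 genes in all. RNA came from primary hepatocytes of male Sprague Dawley rats, thawed from purchased frozen stock, kept in collagen-coated wells under Matrigel and dosed on culture day 3 with beta-naphthoflavone (BNF), a synthetic ligand of the aryl hydrocarbon receptor (AhR). There were 6 groups of 5 arrays, each array from its own culture well: vehicle, 1 µM BNF and 100 µM BNF, each harvested 24 h and 48 h after dosing, with the vehicle labelled as 1% dimethyl sulfoxide. The final dimethyl sulfoxide content of vehicle and BNF wells is not clear from the labels. The labels do not tie wells to animals, so p-values measure the spread between wells. Replicate numbers only name an array.

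Liver parenchymal cells make most of the protein that circulates in blood plasma, and the messages for it are among the most plentiful in these cells. Albumin (Alb) carries fatty acids and drugs, transthyretin (Ttr) carries thyroxine and binds the retinol carrier Rbp4, and Gc carries vitamin D. Apolipoproteins hold lipid in particles: Apob is the structural protein of very low density lipoprotein, Apoa1 is the main protein of high density lipoprotein, and Apoc3 slows the clearance of triglyceride-rich particles. Ahsg (fetuin-A) binds calcium phosphate, Serpina1 (alpha-1-antitrypsin) inhibits neutrophil elastase, and Ambp codes for a precursor that is split into alpha-1-microglobulin and the protease inhibitor bikunin.

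Promoter windows of 300 bases (250 before and 50 after the start) were found for 7 of the 10 genes in RefSeq sequences of assembly GRCr8. Of these windows 4 are shown, since the genes fall on different sides of the results below. Rbp4 and Ambp were called lower at 100 µM BNF and 48 h, though the call of Rbp4 depended on processing and on single wells. Alb was not called, and the probe sets of Gc differed. Rbp4 lies at chr1:245313502-245313801 (- strand), Ambp at chr5:81593808-81594107 (- strand), Alb at chr14:17906930-17907229 (- strand) and Gc at chr14:18916005-18916304 (+ strand). Capitals mark GCGTG, the core of the AhR response element, and GTTAAT, part of the site of the liver factor HNF1, on either strand (CACGC and ATTAAC in reverse).
Rbp4: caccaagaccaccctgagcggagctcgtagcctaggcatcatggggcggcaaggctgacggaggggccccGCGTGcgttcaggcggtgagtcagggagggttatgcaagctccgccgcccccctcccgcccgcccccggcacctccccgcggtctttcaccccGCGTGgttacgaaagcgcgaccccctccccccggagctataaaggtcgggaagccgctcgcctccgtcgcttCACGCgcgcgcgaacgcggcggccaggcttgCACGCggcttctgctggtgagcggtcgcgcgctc
Ambp: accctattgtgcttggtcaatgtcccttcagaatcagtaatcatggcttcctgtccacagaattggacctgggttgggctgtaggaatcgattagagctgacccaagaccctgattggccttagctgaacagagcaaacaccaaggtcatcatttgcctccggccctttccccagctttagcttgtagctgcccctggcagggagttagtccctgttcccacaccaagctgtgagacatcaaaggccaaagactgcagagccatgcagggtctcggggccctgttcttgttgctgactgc
Alb: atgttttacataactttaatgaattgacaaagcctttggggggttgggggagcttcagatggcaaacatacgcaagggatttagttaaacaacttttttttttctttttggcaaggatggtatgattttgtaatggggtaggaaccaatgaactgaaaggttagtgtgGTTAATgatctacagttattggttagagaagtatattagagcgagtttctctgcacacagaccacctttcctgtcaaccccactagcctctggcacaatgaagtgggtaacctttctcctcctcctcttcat
Gc: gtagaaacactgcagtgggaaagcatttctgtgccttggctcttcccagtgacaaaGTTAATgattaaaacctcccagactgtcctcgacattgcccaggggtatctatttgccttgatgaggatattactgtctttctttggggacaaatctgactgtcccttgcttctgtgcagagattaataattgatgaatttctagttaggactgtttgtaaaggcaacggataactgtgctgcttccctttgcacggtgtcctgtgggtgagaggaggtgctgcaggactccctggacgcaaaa
GCGTG occurred in 29.7% of 33469 rat promoter windows of this length and in 2 of the 7 windows here: Rbp4 held 4 matches, and Ahsg, not shown, held 1. GTTAAT occurred in 7.45% of all windows and in the windows of Alb, 82 bases before the start, and Gc, 194 bases before it. Ambp, Serpina1 and Ttr held neither motif in this window, and Serpina1, not shown, was also called lower at 100 µM and 48 h. These are matches of letters only.

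The values are signal intensities on a linear scale, and they lay near the top of each array. The mean log2 signal over 30 arrays was above 15 for 9 of the 10 genes, a level reached by 212 of all genes, and was 14.55 for Apob. Gc was outshone by 1 to 20 probe sets on any array, Alb and Apoc3 by at least 3 and at most 43 and 28, and Apob by 247 to 920. As a share of the brightest probe set on the same array, Gc ranged from 76.4% to 99.0% and Apob from 18.1% to 42.4%. How the arrays were scanned is not stated in the labels. The signal of one gene's probe set does not measure its RNA against that of another gene.

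**Figure D1:**
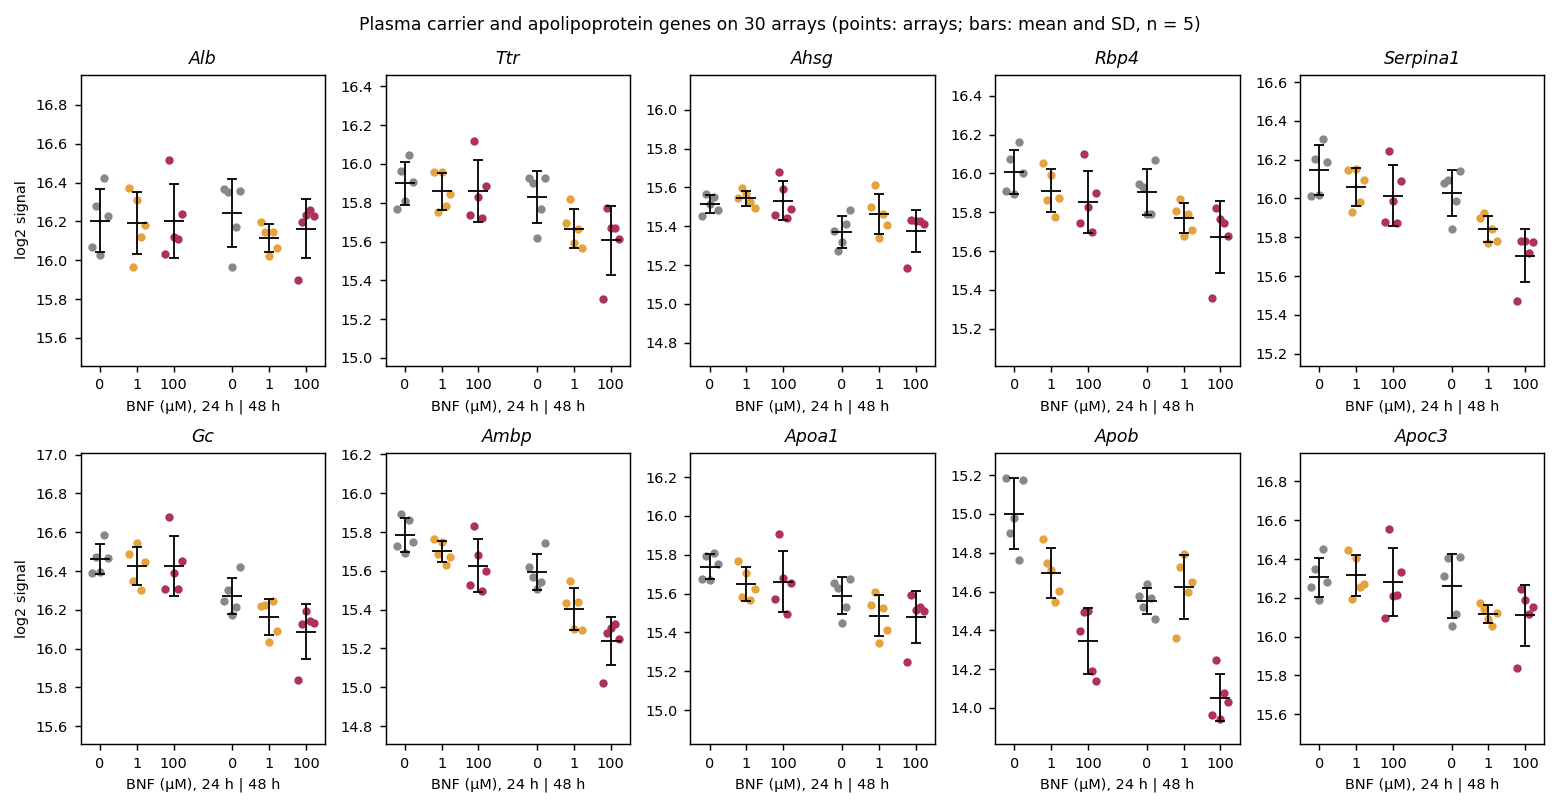
Log2 signal of the 10 genes on each of 30 arrays, with BNF dose (0 is vehicle) on the horizontal axis, 24 h on the left and 48 h on the right of each panel; points are arrays and bars give the mean and SD (n = 5), and every vertical axis spans the same range. At 48 h all 100 µM arrays of Apob, Ambp and Serpina1 lie below all vehicle arrays, while those of Alb and Ahsg overlap with vehicle.

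Exposure was checked on Cyp1a1, the cytochrome P450 that AhR induces. At 48 h its signal was 50727 ± 6829 at 100 µM, against 9525 ± 4287 in vehicle (SD, n = 5), a 5.68-fold rise (limma adjusted p = 5.03e-11). All 3 AhR targets examined, Cyp1a1, Cyp1a2 and Nqo1, rose at both doses and both times. Among 24 exact permutation tests of array quality between groups the smallest p was 0.0238, for the median signal per array, which was 399 ± 17.6 at 1 µM and 48 h, against 377 ± 8.81 in vehicle (adjusted p = 0.4354). With 24 tests of 5 against 5 arrays no single one could pass after adjustment. Of 10 other hepatocyte marker genes 9 were brighter than the median gene, as were 4 of 10 Kupffer cell, 1 of 12 stellate cell and 1 of 6 cholangiocyte markers. One array of the 100 µM group at 48 h, replicate 1, stood apart, with the 10 genes lower than their group means by 0.24 log2 units on average, the largest such deviation of the 30 arrays, and the values of that group are given with it and, in the account of single arrays, without it. The median gene had a within-group SD between 0.19 and 0.21 log2 units.

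The first question was what BNF changed after 24 h. Apob was lower at both doses, and the other 9 genes did not pass the test (adjusted p under 0.05 in limma over all genes). A count of 1 member lower at 1 µM stood against 4.30% of all genes called and 2.40% called lower, and 1 lower at 100 µM stood against 21.1% called and 10.4% called lower. In bulk RNA, fewer hepatocytes and less RNA per hepatocyte cannot be told apart.

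Apob gave signals of 37301, 30598, 32346, 27789 and 37033 in the 5 vehicle wells at 24 h. With 1 µM BNF these were 29988, 27539, 26827, 23933 and 24854. With 100 µM they were 21602, 23102, 23157, 18694 and 18027. Every 100 µM well was below every 1 µM and every vehicle well, and 4 of 5 wells at 1 µM were below all vehicle wells. Against vehicle the log2 fold change of Apob was -0.66 (SE 0.085, 95% interval -0.83 to -0.48) at 100 µM, a 1.58-fold fall (limma adjusted p = 6.58e-07). At 1 µM it was -0.31 (SE 0.085), a 1.24-fold fall with an adjusted p of 0.0351 that depended on single wells. It was also lost with no mean-variance trend (0.0651) and with these groups alone in the fit (0.0687). Leaving out vehicle replicate 1 or 5, or 1 µM replicate 3, 4 or 5, raised that adjusted p to between 0.0618 and 0.111, with log2 fold changes of -0.26 to -0.31. Between the doses at 24 h Apob differed by -0.35 (100 µM minus 1 µM, limma adjusted p = 0.0067), the 1 member called where 7.72% of all genes were called and 4.57% were lower.

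The remaining genes moved little at 24 h. Alb, the most abundant plasma protein, differed from vehicle by -0.001 log2 units at 100 µM (95% interval -0.19 to 0.19, limma adjusted p = 0.996) and by -0.01 at 1 µM. The 100 µM value turned to 0.01 with arrays centred on their medians and 0.02 under quantile normalization, and the 1 µM value to 0.005 under the second of these. Its 100 µM signals were 66921, 93834, 71201, 70662 and 77248, against 68583, 79459, 66700, 87814 and 76704 in vehicle, and the groups overlapped. Ambp (-0.16, adjusted p = 0.081), Rbp4 (-0.15, adjusted p = 0.187) and Serpina1 (-0.13, adjusted p = 0.242) were the next lowest after Apob at 100 µM. Under quantile normalization, which gives every array the same distribution, these 3 and Apoa1 (-0.08, adjusted p = 0.0389) were also called lower, 5 members in all. The share of all genes called under that setting is not given here. Quantile normalization lowered the median within-group SD of the 10 genes to 0.048, against 0.126 as deposited. The median log2 fold change of the 10 genes at 24 h was -0.06 at 100 µM and -0.06 at 1 µM, against 0.04 and 0.03 for all genes at those doses.

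**Figure D2:**
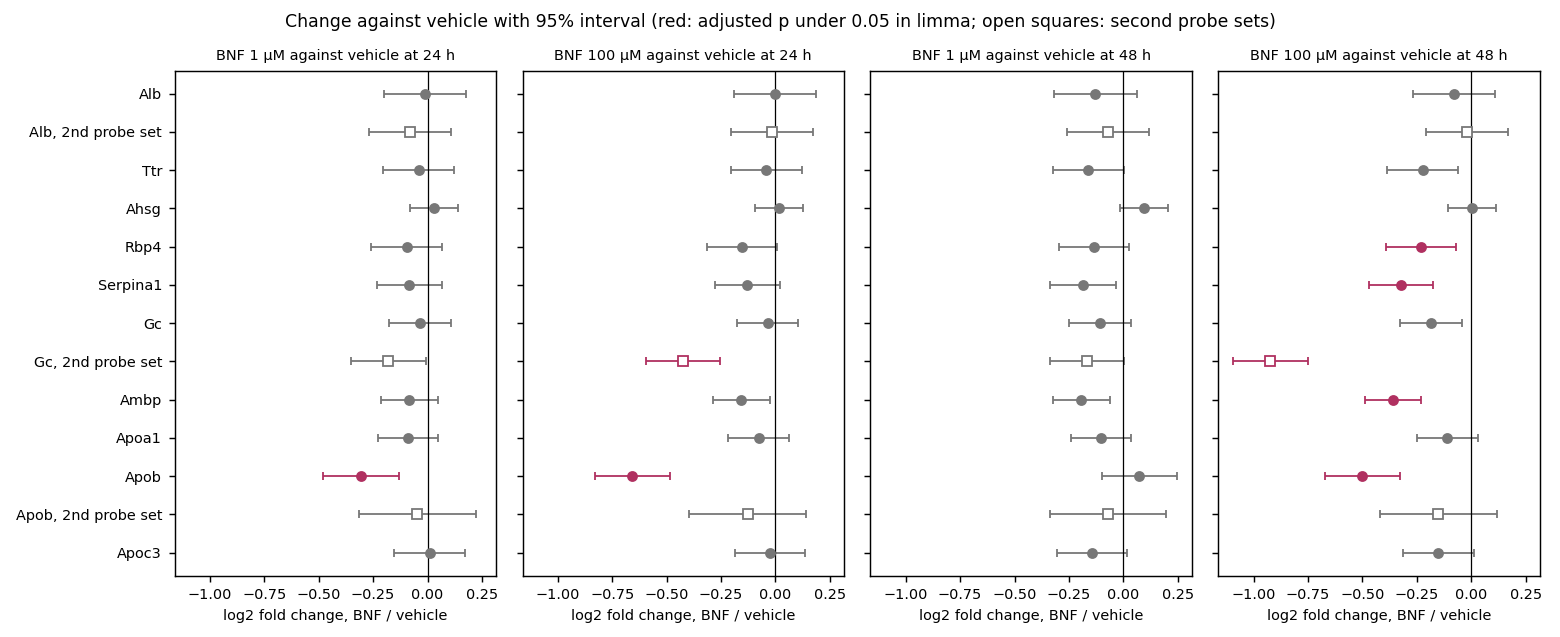
Log2 fold change of BNF over vehicle with its 95% interval (n = 5 wells a group) for the 10 genes and the second probe sets of Alb, Gc and Apob; red marks an adjusted p under 0.05 in limma and open squares mark second probe sets. At 100 µM and 48 h 9 of the 10 main probe sets lie left of 0, and among these Apob, Ambp, Serpina1 and Rbp4 are red. The second probe set of Gc lies farthest left, at -0.92.

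At 48 h the 100 µM dose lowered 4 of the 10 genes, Apob, Ambp, Serpina1 and Rbp4, by 1.18-fold to 1.41-fold. In this comparison 17.4% of all genes were called, and 8.62% were called lower. No member was called higher (0, against 8.79% of all genes), and 9 of 10 had negative values. These values are not independent of one another, since most of the genes moved together from array to array. The median of the 10 was -0.20, against 0.02 for all genes.

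Apob signals were 15967, 19429, 15752, 17272 and 16735 at 100 µM and 48 h, against 24466, 23465, 25483, 24269 and 22498 in vehicle. The groups did not overlap, and the log2 fold change was -0.50 (SE 0.085, 95% interval -0.67 to -0.33, limma adjusted p = 4.96e-05). Ambp, the bikunin precursor, had signals of 33286, 39830, 40434, 41111 and 38915 at 100 µM, against 50307, 48530, 46496, 47677 and 54878 in vehicle. Every treated well was below every vehicle well, and Ambp fell 1.28-fold (log2 fold change -0.36, SE 0.064, limma adjusted p = 8.61e-05). Serpina1 had signals of 45366, 56326, 56303, 53927 and 56132 at 100 µM, against 69122, 70062, 58799, 64894 and 72222 in vehicle. These groups did not overlap either, and Serpina1 fell 1.25-fold (log2 fold change -0.32, SE 0.073, limma adjusted p = 0.00155).

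Their ranks on the array are another view of the same signals and not separate support. At 48 h 79 to 98 probe sets were brighter than that of Serpina1 at 100 µM, against 34 to 44 in vehicle. For Ambp the numbers were 207 to 242 at 100 µM and 112 to 154 in vehicle, and for Apob 667 to 920 at 100 µM and 433 to 562 in vehicle.

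Rbp4, the plasma retinol carrier, had signals of 41926, 57971, 55659, 54826 and 52397 at 100 µM and 48 h, against 63034, 62430, 56795, 56652 and 68789 in vehicle. It fell 1.18-fold (log2 fold change -0.23, SE 0.079, limma adjusted p = 0.0374), with 4 of 5 treated wells below all vehicle wells. This call was lost with arrays centred on their medians (adjusted p = 0.0901), with no mean-variance trend (0.0605) and with these groups alone in the fit (0.0883). It was also lost without vehicle replicate 1, 2 or 5 or 100 µM replicate 1 or 5, with adjusted p between 0.0616 and 0.17 and log2 fold changes of -0.15 to -0.23.

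Ttr, which binds Rbp4 in plasma, and Gc had values just short of the threshold at 100 µM and 48 h. The Ttr signals were 40435, 56054, 52092, 52160 and 50085 at 100 µM, against 62199, 61290, 50220, 55891 and 62365 in vehicle, with overlapping groups and a log2 fold change of -0.22 (adjusted p = 0.0521). The main probe set of Gc gave -0.18 (adjusted p = 0.0664). Under quantile normalization both were called, at -0.16 (adjusted p = 2.38e-04) for Ttr and -0.09 (adjusted p = 0.0228) for Gc. Both also passed with genes below the median signal left out (0.028 for Ttr and 0.0365 for Gc). Ttr passed with a term for title numbers (0.0439), without 100 µM replicate 2 (0.0251) and without vehicle replicate 3 (0.0167).

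The other 4 genes did not pass the test. Alb signals were 60972, 75231, 76948, 78537 and 76805 at 100 µM and 48 h, against 84433, 83553, 64023, 73815 and 84025 in vehicle. The groups overlapped, the log2 fold change was -0.08 (adjusted p = 0.658), and its 95% interval reached from a fall of 1.20-fold to a rise of 1.08-fold. Alb turned to 0.05 under quantile normalization. Ahsg was at 0.00 (95% interval -0.11 to 0.11), Apoa1 at -0.11 (-0.25 to 0.03) and Apoc3 at -0.15 (-0.32 to 0.01).

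At 1 µM and 48 h limma called none of the 10 genes (0 calls, with 2 at an unadjusted p under 0.05), where 0.809% of all genes were called and 0.521% were lower. Those 2 were Ambp (-0.19, adjusted p = 0.174) and Serpina1 (-0.19, adjusted p = 0.295). The Apob signals at 1 µM were 21070, 27075, 28398, 24798 and 25690, against the vehicle values above, and the groups overlapped. Apob differed from vehicle by 0.07 (95% interval -0.10 to 0.25) at this dose. Quantile normalization called 2 members at 1 µM and 48 h: Ambp, lower by -0.13 (adjusted p = 0.0169), and Ahsg, higher by 0.17 (adjusted p = 0.0111). Between 100 µM and 1 µM at 48 h Apob was the 1 member called (-0.57, limma adjusted p = 1.05e-05), where 14% of all genes were called and 7.39% were lower. Under quantile normalization this comparison gave 7 members, all lower at 100 µM. The shares of all genes in this paragraph are for the values as deposited. Those under quantile normalization are not given here, so its counts of members have no background beside them.

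Alb, Gc and Apob each had a second probe set with 1 symbol, and for Gc the probe sets differed in the size of their change. The dimmer Gc probe set, with a mean log2 signal of 11.91, lies far below the top of the scale. It had signals of 1889, 2374, 2262, 2431 and 2253 at 100 µM and 48 h, against 4770, 3445, 4006, 4327 and 4787 in vehicle. The groups were apart, and the fall was 1.90-fold (log2 fold change -0.92, SE 0.084, 95% interval -1.10 to -0.75, limma adjusted p = 2.01e-09 over 4525 genes with a second probe set). At 24 h its signals were 4206, 3966, 3960, 3825 and 3414 at 100 µM, against 5025, 4966, 4973, 5310 and 5699 in vehicle, a log2 fold change of -0.42 (adjusted p = 5.43e-04) with groups apart. At 1 µM it differed from vehicle by -0.18 at 24 h (adjusted p = 0.318) and -0.17 at 48 h (adjusted p = 0.594). Both vehicle comparisons at 100 µM kept their call under centring, quantile normalization, an added constant of 100, no trend, a term for title numbers and the loss of any 1 well, with log2 fold changes over single wells left out of -0.998 to -0.863 at 48 h and -0.455 to -0.380 at 24 h.

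Within each array, the dimmer minus the brighter Gc probe set was -4.96 ± 0.062 at 100 µM and 48 h, against -4.22 ± 0.199 in vehicle (log2, SD, n = 5). The difference of -0.74 had an exact permutation p of 0.00794, the smallest that 5 against 5 wells allow, and an adjusted p of 0.0476 over 12 such two-sided tests. At 24 h it was -0.39 at 100 µM (exact permutation p = 0.00794, adjusted p = 0.0476). With 1 µM it was -0.15 at 24 h (exact permutation p = 0.0238, adjusted p = 0.0476) and -0.06 at 48 h (exact permutation p = 0.627). This comparison was chosen after the values were seen and uses the same signals, so it is not independent of the fold changes above. The brighter Gc probe set lay at 76.4% to 99.0% of the array maximum, and the part of that in the difference was not tested. Neither probe set was known here to measure Gc the better. For the dimmer Gc probe set the 100 µM effect at 48 h minus that at 24 h was -0.50 log2 units (SE 0.119), which did not pass in limma (adjusted p = 0.0576). It passed under quantile normalization (0.0496), without vehicle replicate 2 at 48 h (0.00956) and without 100 µM replicate 5 at 24 h (0.0404).

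For Apob the order was the other way round. The dim Apob probe set (mean log2 9.48) gave log2 fold changes at 100 µM of -0.15 at 48 h and -0.13 at 24 h (SE 0.131, adjusted p = 0.608 and 0.605), which did not pass the test. Its signals at 100 µM and 48 h were 698, 736, 600, 785 and 536, against 745, 856, 685, 683 and 736 in vehicle. The within-array difference of the Apob probe sets shifted by 0.35 at 48 h (exact permutation p = 0.0238, adjusted p = 0.0476) and by 0.53 at 24 h (exact permutation p = 0.0159, adjusted p = 0.0476). The second Alb probe set, whose suffix marks sequence shared with other transcripts, differed from vehicle by -0.02 at 100 µM and 48 h (adjusted p = 0.955). Its within-array difference from the brighter Alb probe set shifted by 0.06 at 1 µM and 48 h (exact permutation p = 0.0238, adjusted p = 0.0476) and by 0.06 at 100 µM and 48 h (exact permutation p = 0.0794, adjusted p = 0.136). Ttr was also on a probe set shared with the metallothionein genes Mt1f and Mt1, which was not used.

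**Figure D3:**
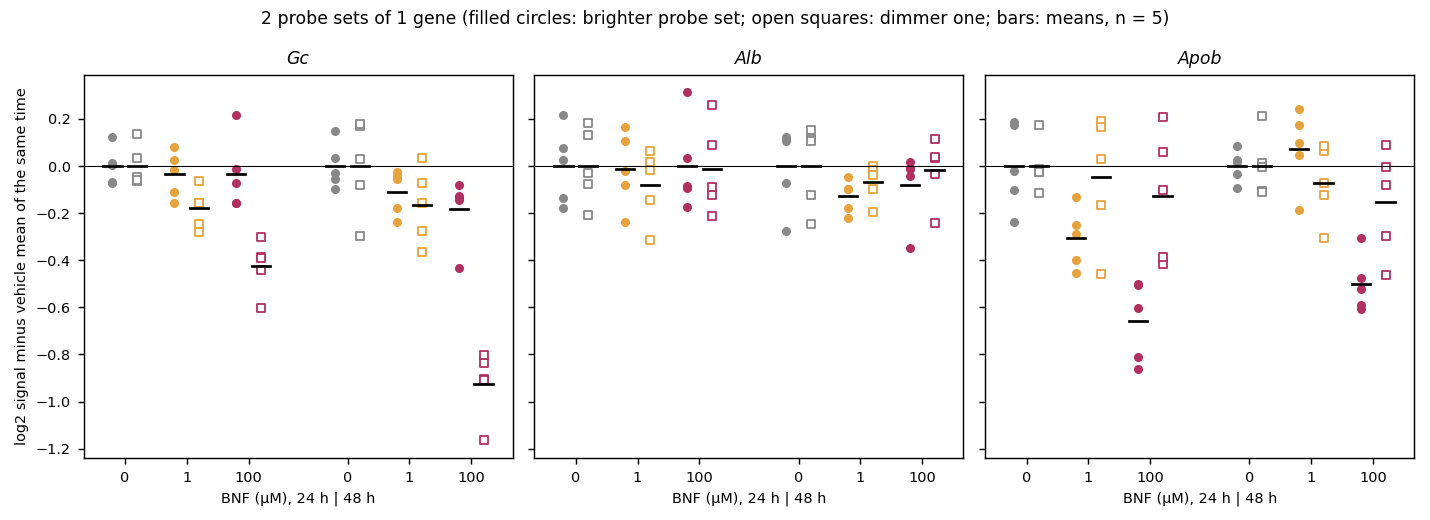
Log2 signal minus the vehicle mean of the same time for both probe sets of Gc, Alb and Apob by BNF dose (0 is vehicle), 24 h on the left and 48 h on the right; filled circles are the brighter probe set, open squares the dimmer one, and bars are means of 5 wells. At 100 µM and 48 h the dimmer Gc probe set lies at -0.92 and the brighter at -0.18, while for Apob the brighter one lies lower.

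Time in culture was compared within each dose. In vehicle, Apob (-0.45, limma adjusted p = 2.30e-04) and Ambp (-0.19, adjusted p = 0.0377) were lower at 48 h than at 24 h, 2 members, where 17.2% of all genes were called and 8.60% were lower. At 1 µM, Ambp (-0.30, adjusted p = 0.00115), Gc (-0.26, adjusted p = 0.00823) and Serpina1 (-0.22, adjusted p = 0.0437) were lower, 3 members against 13.5% called and 6.72% lower. At 100 µM 6 members were lower at 48 h, Ambp (-0.39), Gc (-0.34), Serpina1 (-0.31), Apob (-0.29), Ttr (-0.25) and Ahsg (-0.16), with limma adjusted p between 2.98e-05 and 0.0417, against 17.1% called and 8.26% lower. The calls of Ambp in vehicle and Serpina1 at 1 µM were lost with arrays centred on their medians (adjusted p = 0.0933 and 0.0526). Centring also ended the 100 µM calls of Ttr (0.0815), Ahsg (0.199) and Apob (0.0507). With no trend the calls of Ambp in vehicle (0.0602), Serpina1 at 1 µM (0.0696) and Ahsg at 100 µM (0.0645) were lost. Ahsg was lost as well under quantile normalization (0.13) and with the groups alone in the fit (0.126), and so was Ttr with the groups alone (0.0823). Single wells decided several of these calls. The vehicle call of Ambp was lost without 48 h replicate 1, 2, 3 or 4 or 24 h replicate 2 or 4 (adjusted p of 0.054 to 0.111), and the 1 µM call of Serpina1 without 48 h replicate 1, 3, 4 or 5 or 24 h replicate 1, 3 or 5 (0.0517 to 0.113). At 100 µM the call of Ttr was lost without 48 h replicate 1 or 24 h replicate 2 or 5 (up to 0.118), that of Ahsg without 48 h replicate 1 or 5 or 24 h replicate 2 or 3 (up to 0.166), and that of Apob without 24 h replicate 2 or 3 (up to 0.0527).

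Markers moved with time in the same wells. At 48 h against 24 h, hepatocyte markers were lower for 7 of 10 in vehicle, 8 of 10 at 1 µM and 9 of 10 at 100 µM, and Kupffer cell markers for 4, 6 and 5 of 10 in the same order. The summed Kupffer cell signal in vehicle was 5207 to 6139 at 48 h, against 7288 to 7900 at 24 h, and that of the hepatocyte markers was 237779 to 281877 at 48 h, against 303158 to 334359 at 24 h. All 8 endothelial markers, each dimmer than the median gene, had negative values at both BNF doses, with 1 called lower at 1 µM and 2 at 100 µM. In vehicle 4 of the 8 had negative values, with 1 called higher and 1 called lower. The part of these markers in the time changes of the 10 genes was not tested.

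The effect of BNF was then compared between 48 h and 24 h. In limma no member passed for either dose (0 calls each, with 1 member each at an unadjusted p under 0.05), where 0.0914% of all genes were called at 1 µM and 0.788% at 100 µM. For Apob the 1 µM effect at 48 h minus that at 24 h was 0.38 (SE 0.12, adjusted p = 0.27). For Ambp the difference at 100 µM was -0.20 (SE 0.09, adjusted p = 0.367).

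Most of the 10 genes moved together from well to well within a group, but Apob did not always follow. On vehicle replicate 1 at 24 h Apob was at 15.187, above its group mean of 15.002, while 9 genes were below theirs. On vehicle replicate 4 at 24 h Apob was at 14.762, below that mean, while 9 genes were above theirs. Over 45 pairs of genes, the median Pearson correlation of deviations from the group means was 0.87 on 30 arrays, with a range of -0.11 to 0.95, and 41 pairs were above 0. The genes share the array and its scaling, and all but Apob had mean log2 signals above 15. Under quantile normalization the median correlation was 0.16, and the median within-group SD of the 10 genes was 0.048 against 0.126 as deposited.

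On the array of 100 µM replicate 1 at 48 h all 10 genes were below their group means, by 0.24 log2 units on average. The brightest probe set of that array had the lowest signal of any array's brightest, 70237. On 100 µM replicate 2 at 24 h all 10 genes were above, by 0.23 on average, and its brightest signal was the highest, 121258. Without 100 µM replicate 1 at 48 h, 3 members stayed lower than vehicle at that time: Apob (-0.48, adjusted p = 2.73e-04), Ambp (-0.30, adjusted p = 5.10e-04) and Serpina1 (-0.26, adjusted p = 0.00883), while Rbp4 was at -0.15 (adjusted p = 0.17). Without 100 µM replicate 2 at 24 h, Ambp (-0.21, adjusted p = 0.0155) and Rbp4 (-0.22, adjusted p = 0.0472) were called beside Apob.

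**Figure D4:**
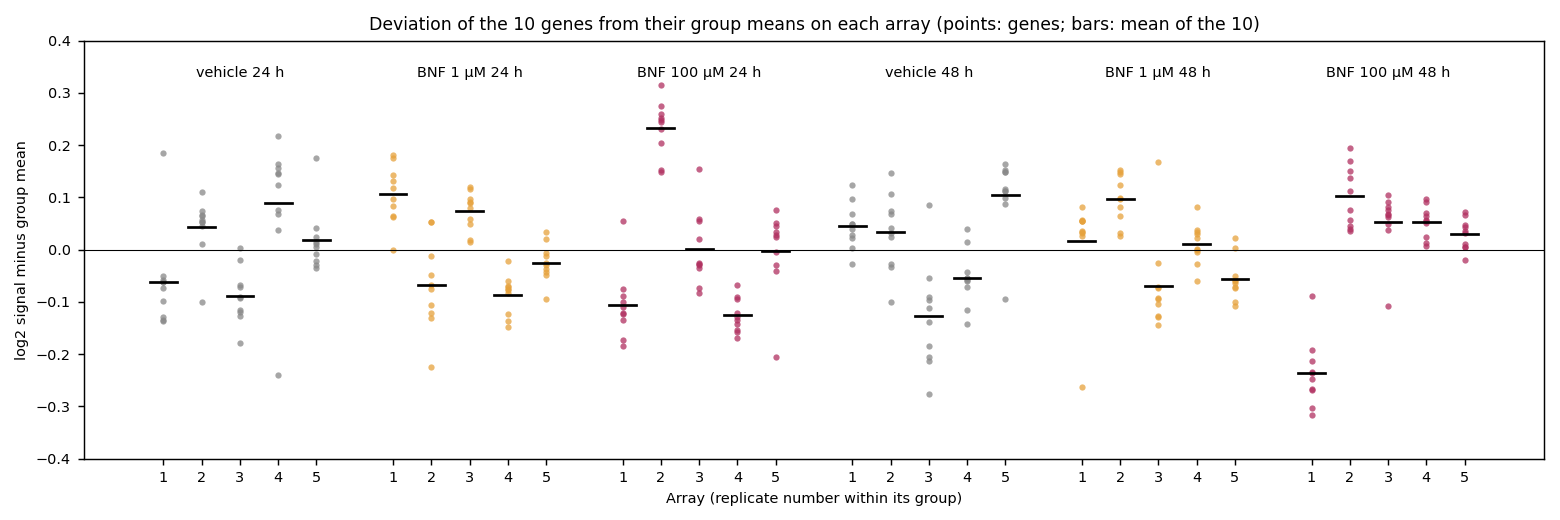
Deviation of the log2 signal of each of the 10 genes from its group mean on each of 30 arrays, which are ordered by group and replicate number; points are genes and bars are the mean of the 10. On many arrays most points lie together, though not always that of Apob. The mean is lowest on 100 µM replicate 1 at 48 h (-0.24) and highest on 100 µM replicate 2 at 24 h (0.23).

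Bright genes as a class were compared with dimmer ones. In the comparison of 100 µM with vehicle at 48 h, the median absolute log2 fold change was 0.09 over the 212 genes with a mean log2 signal above 15, 0.12 over 1319 genes between 13 and 15, and 0.14 over 5578 genes from the median gene to 13. Of the 212 genes 25.5% were called, against 43.4% between 13 and 15, 26.6% from the median gene to 13 and 5.14% below the median gene. At 1 µM and 48 h the order of the sizes was different, with a median absolute log2 fold change of 0.08 above 15, 0.06 between 13 and 15 and 0.08 from the median gene to 13. Only 2 of the 212 were lower than vehicle by at least 1 log2 unit at 100 µM and 48 h, and 0 were at 1 µM and 48 h. These bounds were chosen after the signals were seen, and the part of brightness in the members' changes was not tested.

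The genes whose signals ran most like the mean of the 10 over 30 arrays were Apoe (r = 0.958), Ass1 (0.957), Fgg (0.956), Hpd (0.954) and Skp1 (0.949). These correlations are given for the log2 signals as deposited only, so they include any movement that genes share on an array. Apoe is also in the list of other apolipoproteins below, and Ass1 and Hpd are among the hepatocyte markers. All 5 had mean log2 signals between 15.55 and 16.18, so they were as bright a class as the 10 genes other than Apob.

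The counts of the lists below stand beside these shares of all genes called against vehicle. At 100 µM 8.62% were lower and 8.79% higher at 48 h, and 10.4% were lower at 24 h. At 1 µM 2.40% were lower at 24 h and 0.521% at 48 h. Other secreted carriers were lower as well at 100 µM. Of 17 measured plasma carriers outside the 10, 11 were lower and 2 were higher than vehicle at 48 h, and 9 were lower and 0 higher at 24 h, with medians of -0.34 and -0.30, against 0.02 and 0.04 for all genes. The inter-alpha-inhibitor chain Itih4 had a signal of 6560 ± 322 at 100 µM and 48 h, against 12666 ± 1147 in vehicle (SD, n = 5), a 1.93-fold fall (limma adjusted p = 3.81e-14). Selenop, the selenium carrier, fell 1.60-fold at 48 h (24585 ± 1804 against 39364 ± 2027). Azgp1, a zinc-binding secreted glycoprotein, fell 1.69-fold at 24 h. Fetub, a relative of Ahsg, rose 1.74-fold at 48 h, with 23213 ± 898 at 100 µM against 13359 ± 947 in vehicle (adjusted p = 1.35e-11). At 1 µM 6 of the 17 were lower at 24 h and 0 passed in either direction at 48 h.

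Of 10 other apolipoproteins, 6 were lower and 0 higher at 100 µM at each time, with medians of -0.41 at 48 h and -0.30 at 24 h. Apoc2, the cofactor of lipoprotein lipase, had a signal of 5150 ± 551 at 100 µM and 48 h, against 12657 ± 1065 in vehicle, a 2.46-fold fall (limma adjusted p = 1.16e-13). Apoc4 fell 2.06-fold and Apoa5, which promotes triglyceride clearance, fell 1.79-fold at 48 h. Apon fell 1.65-fold at 24 h. In 1 µM wells 2 of the 10, Apoc2 (1.29-fold) and Apoc4 (1.25-fold), were lower at 24 h and 0 passed at 48 h.

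Among 12 genes of lipoprotein assembly and uptake, 5 were lower and 1 higher at 100 µM and 48 h, and 5 lower and 0 higher at 24 h. Mttp, which loads lipid onto Apob, had a signal of 2775 ± 139 at 100 µM and 48 h, against 5859 ± 649 in vehicle, a 2.10-fold fall (limma adjusted p = 4.58e-11). At 24 h Mttp fell 2.24-fold at 100 µM (adjusted p = 1.29e-11) and 1.57-fold at 1 µM (adjusted p = 1.56e-05), with groups apart at both doses. Abca1, the lipid exporter that supplies Apoa1, fell 1.39-fold at 48 h, and Lcat, the plasma enzyme that esterifies cholesterol, fell 1.48-fold.

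Transcription factors known to act in liver were measured for 19 genes, and 7 of these were dimmer than the median gene. Of the 19, 10 were lower and 1 higher at 100 µM and 48 h, and 9 lower and 0 higher at 24 h. Hnf4a, a nuclear receptor that binds many of these promoters, fell 1.31-fold at 24 h (7374 ± 422 at 100 µM against 9647 ± 657 in vehicle, limma adjusted p = 1.22e-05) and 1.16-fold at 1 µM and 24 h (adjusted p = 0.0338). Cebpd fell 2.15-fold and the xenobiotic receptor gene Nr1i2 fell 1.55-fold at 48 h.

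All 10 hepatocyte marker genes, which include the secreted clotting factor gene F9, were lower at 100 µM and 48 h, and 8 of 10 at 24 h, with medians of -0.77 and -0.48. Cps1, a urea cycle enzyme, had a signal of 22084 ± 2548 at 100 µM and 48 h, against 46470 ± 3941 in vehicle, a 2.11-fold fall. The summed signal of the 10 markers was 154040 to 183153 at 100 µM and 48 h, against 237779 to 281877 in vehicle. Over the same wells the summed signal of the 10 plasma protein genes was 431303 to 547710 at 100 µM and 529470 to 637854 in vehicle, with overlapping ranges. The brightest probe sets weigh most in such sums, and the sums do not measure the RNA of one list against that of the other.

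Markers of other liver cells were followed in the same wells. Of 10 Kupffer cell markers 0 passed in limma against vehicle at any dose and time, and their summed signal was 4486 to 5767 at 100 µM and 48 h, against 5207 to 6139 in vehicle. For 12 stellate cell markers the sum was 5311 to 6419 at 100 µM and 24 h, against 6675 to 10057 in vehicle, and 3 were lower. Lox made up most of that difference, at 2069 ± 333 against 5233 ± 1209. At 48 h the sum was 3745 to 4936 at 100 µM against 3705 to 5908 in vehicle, with 2 called lower, Lox and Rgs5, and a median of 0.15. For 6 cholangiocyte markers it was 9386 to 10031 at 100 µM and 48 h, against 11839 to 13557 in vehicle, with 1 called, Epcam (1.28-fold lower). Epcam made up most of that sum, at 9194 ± 288 against 11792 ± 693, and the median of the 6 was 0.12, with 3 of 6 negative. For 8 endothelial markers, all dimmer than the median gene, 1 was lower at that dose and time (Stab2), and of 6 lymphocyte markers 0 were called against vehicle at any dose. Their part in the changes of the 10 genes was not tested.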

How the data were processed

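Biotin-labelled RNA of 30 wells was read on Affymetrix rat expression arrays. The deposited values are signal intensity per probe set on a linear scale, which the submitters' processing notes credit to MAS5 (version not stated). The trimmed mean of every array (2% at each end) was 1500.5 to 1500.6, so the authors had scaled arrays to a common level, which hides any shift common to most genes. No source used here gives the background method or filters. Of 31099 probe sets, 57 controls were left out; 20826 had 1 symbol, 436 several and 9780 none. Gene numbers of 20758 matched RefSeq (GRCr8), used for names and promoters. Promoter windows came as a table of RefSeq sequences, and no other genome sequence was used.

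The log2 of each deposited intensity was used, with no added constant. A mean per group was fitted to 30 arrays (24 residual degrees of freedom) with limma 3.58.1 in R 4.3.3, using eBayes with a trend, for 11 contrasts. Benjamini-Hochberg adjustment ran over 14217 genes (4525 for second probe sets) and called at 0.05. Folds are 2 to the power of the log2 fold change, and SE is its standard error. The fit was checked on simulated data for 1 µM against vehicle at 24 h, over genes of any brightness. It recovered 17.8% of changes of 0.25 log2 units, 51.2% of 0.5 and 68.9% of 1, with 5.33% false calls on average. A gene that did not pass may thus still have changed. Array quality and probe set differences used exact permutation tests. Precision is limited by the number of arrays.

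The 10 genes, the lists and the rule for names were chosen with earlier results of these data known. The rule named all 10, up to 3 genes of each list with the smallest adjusted p among those called in a contrast with vehicle, and the 5 genes most correlated with the mean of the 10. Alternatives were centring or quantile normalization of arrays, an added constant of 100, genes below the median signal left out, no trend, a term for consecutive title numbers, second probe sets, the contrast's groups alone, and each array left out in turn. No pair of arrays was identical (0).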

Additional observations from a re-analysis of the deposited data

Results flagged for a closer look

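In the 100 µM group at 48 h, replicate 1 lay far below the other 4 wells for 6 of the 10 genes by Dixon's criterion. Its signals there were 60972 for Alb, 37195 for Ahsg, 45366 for Serpina1, 58652 for Gc, 33286 for Ambp and 38843 for Apoa1. Chance gives about 1 such array in 20 groups, and 60 groups of 5 were screened, with 6 found. The 6 come from 1 array, on which all 10 genes were below their group means, so they are not independent. The comparison with vehicle without this array is given with the results.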

How the results depend on the processing

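Adding a constant of 100 before log2 left all 76 results it was run on with the same direction and call. Leaving out 1 array kept 710 of 780 values, and 24 reversed, 36 lost and 10 gained a call; the cause was not tested. Second probe sets exist for fewer genes (4525), and called 87, 580, 0 and 351 genes for 1 µM and 100 µM against vehicle at 24 h and then at 48 h, against 612, 3000, 115 and 2475. They called 115 and 264 between the doses at 24 h and 48 h, against 1097 and 1984; 406, 215 and 303 between times in vehicle, 1 µM and 100 µM, against 2450, 1926 and 2438; and 0 and 11 for the differences of effects at 1 µM and 100 µM, against 13 and 112. With the contrast's groups alone in the fit, 30 genes were called at 1 µM and 48 h. The 13 genes of the 1 µM difference became 0 with centring, 23 with quantile normalization, 4 with no trend and 5 with the groups alone, and the 112 at 100 µM became 174 with dim genes left out. The number of members called against vehicle at 24 h became 0 for 1 µM with no trend and with the groups alone, and 5 (quantile normalization) and 2 (dim genes left out) for 100 µM. Quantile normalization called 2 at 1 µM and 48 h, 2 between doses at 24 h, 7 between doses at 48 h (2 with dim genes left out), and 1 for the 100 µM difference, Ambp at -0.16. The share of all genes called under quantile normalization is not given beside these counts. Between times, vehicle gave 1 with centring or no trend and 4 with quantile normalization or dim genes left out, 1 µM gave 5 with the groups alone, and 100 µM gave 3 with centring. Signs turned for values near 0. Under quantile normalization Alb was at 0.005 (1 µM, 24 h), 0.017 (100 µM, 24 h) and 0.045 (100 µM, 48 h), and Gc at 0.017 (1 µM, 48 h). With centring Alb was at 0.010 (100 µM, 24 h), Apoc3 at -0.008 (1 µM, 24 h), and Ttr and Gc at 0.016 and 0.002 (100 µM minus 1 µM, 48 h). The second Apob probe set was at -0.071 (1 µM, 48 h). With 1 array left out, genes called ranged from 406 to 689 (1 µM, 24 h), 46 to 153 (1 µM, 48 h) and 2 to 22 (1 µM difference). Members called ranged from 0 to 1 (1 µM, 24 h), 1 to 3 (100 µM, 24 h), 1 to 4 (time in vehicle) and 3 to 7 (time at 100 µM). Values that turned sign ranged, at 1 µM and 24 h, from -0.059 to 0.043 for Alb and -0.023 to 0.046 for Apoc3. At 100 µM and 24 h they ranged from -0.080 to 0.054 for Alb, -0.019 to 0.040 for Ahsg and -0.093 to 0.021 for Apoc3. At 48 h they ranged from -0.021 to 0.052 for Ahsg at 100 µM and -0.104 to 0.014 for Ttr between doses. The labels give no replicate numbers shared by groups. Sets of 6 consecutive title numbers, 1 array of each group, were used as a block instead, and the 1 result that changed was the call of Ttr (100 µM, 48 h, adjusted p = 0.0439).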
